A study of Mus musculus with 10 samples.

Results

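The low class was 1 of 4 classes into which the authors' deposited table sorted adenosines of ACA sites in mouse messenger RNA. Its 249 members were taken by the class label alone, CellRep_low, and made up 15.3% of the 1626 sites. The other classes were intermediate (491 sites), high (771) and highest (115). How the classes were built, and whether the values described here were used to build them, is not stated in the labels or the table, so the low class is described against the others without a test.

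The study compared mouse embryonic stem cells (ESC) and embryoid bodies (EB), each wild type for Mettl3 (WT) or labelled as a knockout (KO, genotype written Metll3-/-). ESC were expanded on irradiated feeder fibroblasts with serum and LIF, then kept on gelatin in serum-free N2B27 medium with LIF and the kinase inhibitors CHIR99021 and PD0325901. EB came from such cells grown in suspension for 9 days in serum medium without LIF or inhibitors. The labels list 10 polyA RNA libraries, 3 each for ESC WT and ESC KO and 2 each for EB WT and EB KO, and do not say how many KO clones were used. The table holds 1 value per site for each of the 4 groups, with no library values and no read numbers, so depth is unknown and no error over libraries, SD or test could be given.

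METTL3 is the catalytic subunit of the nuclear complex that writes N6-methyladenosine (m6A) into messenger RNA, mostly at DRACH sequences (D stands for A, G or U, R for A or G, H for A, C or U). The bacterial ribonuclease MazF cuts RNA just before an ACA and cuts poorly where the first A is methylated, so assays built on it read methylation from uncut molecules; the labels do not name the enzyme used here. In stem cells, m6A is known for its role in the exit from pluripotency. The measured quantity is the cleavage efficiency, a fraction between 0 (never cut) and 1 (always cut). A KO value above the WT value means more cutting in cells labelled as lacking METTL3. The table holds no expression and no Mettl3 site, so neither the knockout nor the cell types, left-over feeder cells included, could be checked. Of the genes listed as pluripotency, differentiation and fibroblast markers, Tbx3 alone had a site in the low class.

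Each site comes with 11 bases read 5′ to 3′, in which the A of the ACA is base 6. Every site reads GACA at bases 5 to 8, base 4 is A or G, and base 9 is open. The sites below carry the results. The capitals mark bases 4 to 9, that is the variable base 4, the fixed GACA and the variable base 9. The first 7 were cut more in KO by at least 0.10 in at least 1 stage.
Gse1: gatGGACAAtg
Chac1: ggtGGACATca
Tbx3: caaAGACACtt
Kif14: gagAGACATgg
Chd4: ggaAGACAAag
Tut4: gctGGACATgt
Cit: cagAGACACga
The next 5 were cut less in KO in at least 1 stage. Of these, Scaf11 and Pmf1 went opposite ways in ESC and EB.
Scaf11: gcgAGACAGag
Tcf3: agaGGACAAga
Sbno1: tgaAGACAAtg
Snx3: agcGGACACcc
Pmf1: agtAGACACtt
Casc4 and Hmgb1 stand for sites hardly cut in any column, and Utrn and Ythdc1 for sites cut nearly completely in every column.
Casc4: aagGGACAGtt
Hmgb1: tagAGACAGcg
Utrn: cgcAGACATga
Ythdc1: acgAGACAGga
The last 2 lie in the same gene and share the 6 capital bases, but belong to the low and the high class.
Ccnd1, low class: tggGGACATgt
Ccnd1, high class: tgtGGACATct

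In all 4 columns most low-class sites were cut efficiently, with medians from 0.766 to 0.824. ESC WT held values for 208 sites, with a median of 0.766 (quartiles 0.438 and 0.899). ESC KO held 192 values with a median of 0.816 (quartiles 0.480 and 0.904). The 214 EB WT values had a median of 0.815 (quartiles 0.527 and 0.908), and the 143 EB KO values a median of 0.824 (quartiles 0.520 and 0.910). The order of the medians spans far less than the quartiles of any column, so the columns overlap almost fully. In the other 3 classes the WT medians were 0.379 in ESC and 0.479 in EB, while the KO medians were 0.811 and 0.818. The low class therefore stood above the others in the WT columns and level with them in the KO columns.

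**Figure D1:**
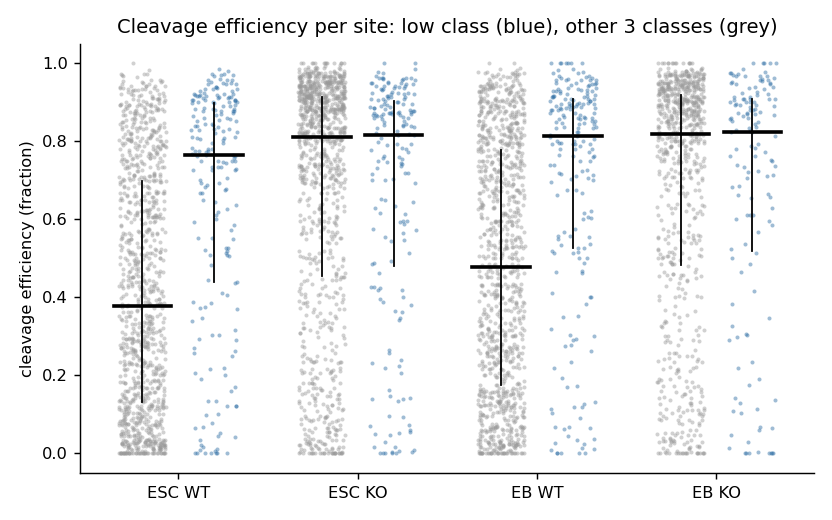
Cleavage efficiency (fraction, vertical axis) of every site with a value, by column (ESC WT, ESC KO, EB WT, EB KO). Blue points are low-class sites and grey points the other 3 classes, the thick line is the median and the thin line joins the quartiles; blue medians lie between 0.766 and 0.824, grey WT medians at 0.379 and 0.479.

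The same split shows at the ends of the scale. Low-class sites at or above 0.80 made up 45.2% (WT) and 51.0% (KO) in ESC and 52.8% (WT) and 51.7% (KO) in EB. In the other classes the shares were 15.7% and 22.4% in WT and 52.5% and 53.8% in KO. A smaller group of low-class sites was hardly cut: 13.9%, 14.1%, 12.6% and 15.4% lay below 0.20 in the same column order. In ESC, values were missing for 41 sites in WT and 57 in KO, and in EB for 35 and 106, so EB comparisons rest on fewer sites.

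All 4 values were present for 128 of the 249 sites (51.4%). For 65 of them (50.8%) the 4 values spanned less than 0.10, against 218 of all 759 sites with 4 values (28.7%). At or above 0.80 in every column were 55 low-class sites (43.0%), against 151 of all 759 (19.9%), and below 0.20 in every column were 17 (13.3%), against 98 (12.9%). The steady sites of the class were thus of 2 kinds, well cut and hardly cut, and the share of the second kind was close to that over all sites.

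Among the well-cut sites, the Utrn site (utrophin, a link between the membrane and the actin cytoskeleton; chromosome 10, position 12206275, minus strand, coding sequence) had values of 0.958 (WT) and 1 (KO) in ESC and 1 (WT) and 0.968 (KO) in EB. The Ythdc1 site (chromosome 5, position 87246025, plus strand, coding sequence) had 0.921, 0.952, 1 and 0.956 in the same order. YTHDC1 is the nuclear reader of m6A, and its site was the only one of the m6A machinery list in the low class; its 11 bases fit a second gene as well, and it was assigned by its place in the transcript. Sites in Ap3b1 (a subunit of the AP-3 vesicle adaptor), Ttc3 and Brd7 (a bromodomain subunit of a SWI/SNF complex) were also among the 5 highest means of the sites the naming rule covers, with no value under 0.909.

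The 5 named sites with the lowest means, among those the naming rule covers, stayed near 0 in every column. The Casc4 site (chromosome 2, position 121760893, plus strand, 3′ UTR) was listed at 0 in all 4 columns. The Hmgb1 site (the gene of a chromatin-associated HMG-box protein; chromosome 5, position 149864534, minus strand, 5′ UTR) had 0.00647, 0.00300, 0.00997 and 0.0147. Gm13238, Zfp553 and Mtf1 (a metal-responsive transcription factor) completed these 5, with no value over 0.0267; unnamed sites with means as low are not listed here. These sites were as little cut in KO as in WT.

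The first comparison, KO minus WT in ESC, asks which sites were cut more in cells labelled as lacking METTL3. Both columns held a value for 176 low-class sites, and the median difference was 0.0309 (quartiles -0.0165 and 0.0913; 95% interval of the median over sites 0.0174 to 0.0465). KO was higher at 121 sites, lower at 53 and tied at 2. With a difference of 0.10 or more counted, 38 sites (21.6%) were higher in KO, against 55.4% of all 1046 sites measured. Lower in KO by 0.10 or more were 10 sites (5.68%), against 2.58% of all sites. At a size of 0.20 the counts were 13 higher and 1 lower. The other 3 classes had a median difference of 0.167 and 542 of 870 sites higher (62.3%). The low class lay below each of the other classes, whose medians were 0.0732 in the intermediate, 0.248 in the high and 0.405 in the highest class.

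In EB the median difference lay near 0. Over 140 sites it was -0.000233 (quartiles -0.0502 and 0.0379; 95% interval over sites -0.0150 to 0.00542), with KO higher at 67 sites, lower at 70 and tied at 3. Higher by 0.10 or more were 11 sites (7.86%), against 41.9% of all 855 sites. Lower by 0.10 or more were 15 sites (10.7%), against 5.96%. At a size of 0.20 there were 3 sites each way. The other 3 classes had a median of 0.0937 and 347 of 715 sites higher (48.5%), and the medians were 0.0197, 0.158 and 0.366 in the intermediate, high and highest class. In EB, sites lower in KO slightly outnumbered those higher at the size of 0.10, but not on a logit scale with a size of 1, where 14 were higher and 13 lower. These counts use differences as deposited. The column medians over all 759 complete sites differ between KO and WT, and subtracting them shifts every difference by -0.373 in ESC and -0.266 in EB. On that scale 1 low-class site was higher and 170 were lower in ESC, and 1 was higher and 136 lower in EB.

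**Figure D2:**
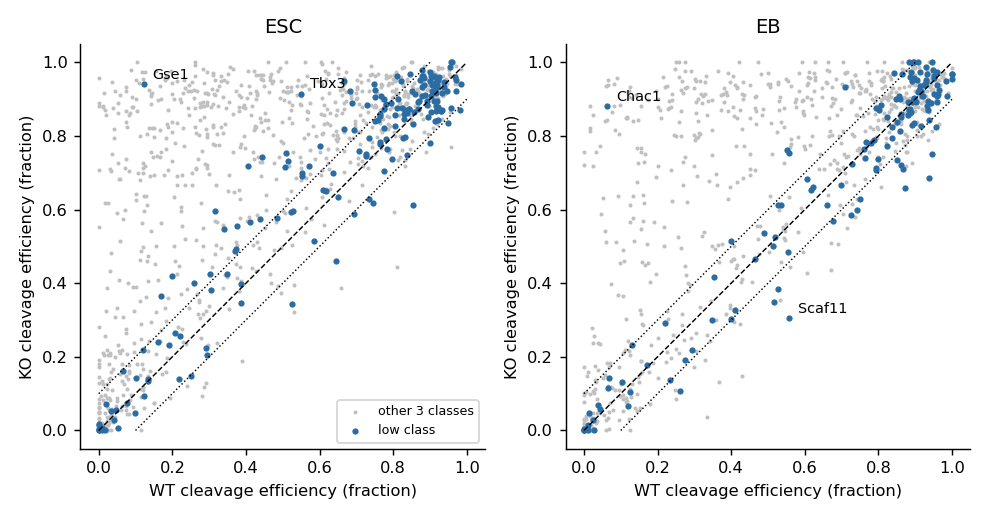
KO cleavage efficiency (fraction, vertical axis) against WT cleavage efficiency (fraction, horizontal axis) per site, in ESC (left) and EB (right); blue points are low-class sites, grey points the other 3 classes, the dashed line marks equality and the dotted lines a difference of 0.10. Most blue points lie near the dashed line, and Gse1 in ESC (0.122 and 0.941) and Chac1 in EB (0.0635 and 0.882) lie far above it.

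How far values move without a genotype change was read from the stages. EB minus ESC in KO had a median of 0 over 135 low-class sites, with 11 sites higher by 0.10 or more (8.15%, against 7.10% of all sites) and 16 lower (11.9%, against 11.1%). Its absolute size stayed below 0.161 at 95% of sites, a size that includes any change between stages. Past that size, 18 low-class sites were higher and 3 lower in KO in ESC, and 4 were higher and 5 lower in EB. The same size was passed upward by 51.3% of the other classes' sites in ESC and 40.8% in EB. In EB the downward differences of the class past that size were about as many as the upward ones. In WT the stages differed more, with 95% of absolute differences below 0.210.

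In WT the stages did differ. EB minus ESC in WT had a median of 0.0319 over 182 sites, with 43 sites higher in EB by 0.10 or more (23.6%, against 26.4% of all sites) and 4 lower (2.20%, against 5.51%). The low class thus shared the upward shift from ESC WT to EB WT with the rest of the table. Of the 25 sites higher in KO in ESC that had all 4 values, ESC WT was the lowest of the 4 in 21 (84.0%), close to the 78.5% of the corresponding sites in the other classes. At 16 of the 25 (64.0%) EB WT exceeded ESC WT by 0.10 or more, against 36.1% of the corresponding sites in the other classes. Of the 15 sites lower in KO in EB, EB WT was the highest of the 4 values in 13 (86.7%), against 54.8% in the other classes. Both shares use the ESC WT or EB WT value that also enters the difference, and the part of a single WT column in these counts was not tested.

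Most of the low-class sites higher in ESC KO had WT values in the middle of the scale. In the other classes more began low. Of their 542 higher sites, 166 had an ESC WT value below 0.20, against 2 of 38 in the low class. Where ESC WT lay between 0.20 and 0.50, 12 of 23 sites were higher in KO by 0.10 or more (52.2%; median difference 0.116), against 82.6% in the other classes. Between 0.50 and 0.80 these were 20 of 49 (40.8%; median 0.0891), against 73.1%. At or above 0.80 it was 4 of 78 (5.13%), against 15.4%. Below 0.20 it was 2 of 26 (7.69%), against 60.6%. The levels are set by the WT value that also enters the difference, so a low or high WT reading moves both, and the split is a description. Sites near 1 cannot rise by 0.10. With WT limited to 0.90 or less, 38 of 138 sites were higher in ESC (27.5%) and 11 of 99 in EB (11.1%), against 66.0% and 54.3% in the other classes. In EB the counts were low at every WT level, from 1 of 12 to 5 of 80.

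The Gse1 site had the largest difference in ESC. It lies on chromosome 8 at position 123094751, plus strand, in the coding sequence, and had values of 0.122 in ESC WT, 0.941 in ESC KO and 0.0909 in EB WT, with no EB KO value. Both WT values were low and the KO value high, a difference of 0.819 in ESC.

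Chac1, whose enzyme degrades glutathione and is induced in the unfolded protein response, had the largest difference in EB. Its site lies on chromosome 2 at position 119179369, plus strand, in the 3′ UTR, and had 0.0635 (WT) and 0.882 (KO) in EB and 0.809 in ESC KO, with no ESC WT value. The EB difference was 0.818, and both KO values were high. These 2 sites were the only low-class sites with a difference above 0.40 in either stage, and each lacks 1 of the 4 values, so neither could be compared in both stages.

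Tbx3, a T-box factor of the naive pluripotency network, had the second largest difference in ESC. Its site (chromosome 5, position 120121860, plus strand, 5′ UTR) had 0.549 in ESC WT, 0.915 in ESC KO and 0.718 in EB WT, a difference of 0.366, with no EB KO value. Kif14, a mitotic kinesin, followed: its site (chromosome 1, position 138383741, plus strand) had 0.406, 0.719, 0.514 and 0.50 in ESC WT, ESC KO, EB WT and EB KO. The ESC KO value of Kif14 stood alone above the other 3, and the EB difference was -0.0135. Rlim, a ubiquitin ligase known for its part in X inactivation (chromosome X, position 101158838, minus strand, coding sequence), had 0.667, 0.948, 0.838 and 0.824, so here ESC WT stood below and ESC KO above both EB values. Timm44, which anchors the import motor at the inner mitochondrial membrane, had 0.508, 0.755, 0.697 and 0.666, with ESC WT alone apart.

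The remaining ESC responders named by size were Smtnl2 (0.444 in WT, 0.742 in KO, no EB values), Epb41l1 (0.316 and 0.596, with 0.595 in EB KO) and Ergic2 (0.683 and 0.923, with 1 in EB WT). Epb41l1 encodes a protein of the membrane cytoskeleton, and Ergic2 a membrane protein of early secretory traffic. No EB difference exists for any of these 3.

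Few sites responded in both stages. Of the 128 sites with 4 values, 25 were higher by 0.10 or more in ESC and 6 in EB, and 3 were higher in both (2.34%, against 37.2% of all 759). The 3 were 12% of the ESC list and 50.0% of the EB list. None was lower in both stages (0.395% of all sites). The differences had the same sign in both stages at 60 sites (46.9%). Across these 128 sites the Pearson correlation of the ESC and EB differences was 0.0269 and the Spearman correlation 0.0715, against 0.891 and 0.751 over all 759 sites. The efficiencies themselves correlated at 0.962 between the WT columns and 0.969 between the KO columns of the low class. These are descriptions across sites, which share the libraries of each group, and the small range of differences in the low class limits any correlation. The site levels were therefore alike between stages while the small differences by genotype were not.

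**Figure D3:**
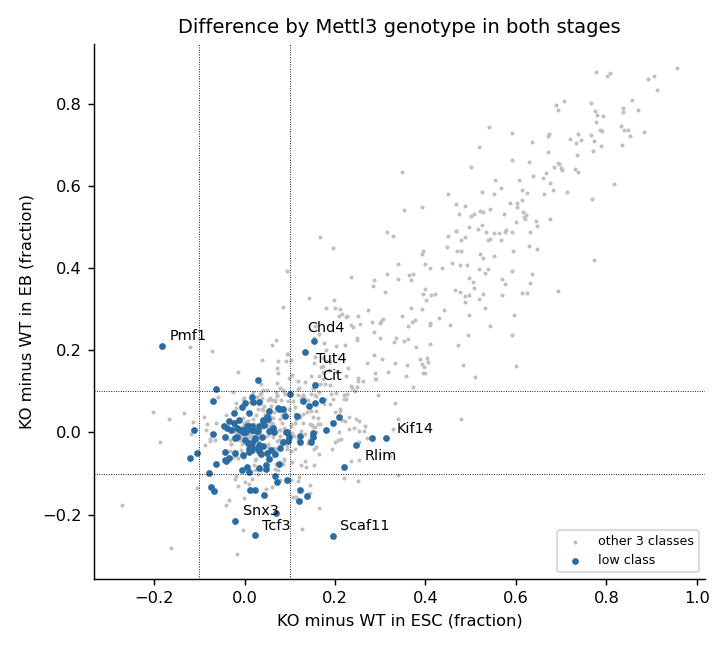
KO minus WT cleavage efficiency in EB (fraction, vertical axis) against that in ESC (fraction, horizontal axis) for sites with all 4 values; blue points are the 128 low-class sites, grey points the other 3 classes, and dotted lines mark differences of 0.10 in each direction. Blue points gather around 0 with 3 in the upper right field (Chd4, Tut4 and Cit), while grey points stretch along the diagonal.

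The 3 sites higher in both stages lie in coding sequence. Chd4 encodes the ATPase of the NuRD chromatin remodelling complex, and its site (chromosome 6, position 125072561, plus strand) had 0.730 (WT) and 0.884 (KO) in ESC and 0.710 (WT) and 0.933 (KO) in EB. Both KO values stood above both WT values, with differences of 0.154 and 0.223. Tut4 encodes a terminal uridylyltransferase that adds U to RNA ends, and its site (chromosome 4, position 108221957, plus strand) had 0.439, 0.574, 0.557 and 0.753. Here both differences, 0.135 and 0.196, passed 0.10, though ESC KO lay only just above EB WT. Cit encodes citron kinase, which acts in cytokinesis, and its site (chromosome 5, position 116395859, plus strand) had 0.411, 0.566, 0.400 and 0.515. At Cit the KO values again stood above both WT values, by 0.155 and 0.115 within the stages.

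The 38 sites higher in ESC did not carry over to EB as a group. Of these, 25 had an EB difference, positive at 12 and negative at 13, with a median of -0.000465 where their own ESC median was 0.156. Counting either stage, 46 low-class sites were higher and 25 lower by 0.10 or more, among 188 with any difference measured. The either-stage count was not made over all sites. In single stages, 55.4% of all sites were higher in ESC and 41.9% in EB, and 2.58% and 5.96% were lower. For 61 low-class sites no difference could be formed, 48 had one in ESC only and 12 in EB only. The 38 sites were chosen by their ESC difference, so their ESC median is set by that choice and a smaller EB median can follow from it. Of the 25 with all 4 values, 3 were higher by 0.10 or more in EB too. In the other classes this held for 279 of 382 sites, whose differences were larger. Whether the low-class differences belong to the ESC stage was not tested.

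Besides Chac1, Chd4, Tut4 and Cit, the EB list held Top1 and Dram2, both close to the threshold. Top1, the DNA topoisomerase I gene, had 0.894 and 1, with 0.947 in ESC WT. Dram2 had 0.863 and 0.968 in EB, while in ESC it had 0.933 in WT and 0.871 in KO. At both sites KO stood above WT in EB, by 0.106 at Top1 and 0.105 at Dram2, and the ESC difference at Dram2 was negative.

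Sites lower in KO were 10 in ESC (5.68%, against 2.58% of all sites) and 15 in EB (10.7%, against 5.96%). Among the 128 sites with 4 values, 4 were lower in ESC and 15 in EB. None of them was lower in both, against 0.395% of all 759 such sites, and 4 sites leave little room for overlap. In ESC the largest fall was at Sbno1 (chromosome 5, position 124843821, minus strand, coding sequence), with 0.852 in WT and 0.613 in KO. Its EB WT value was 0.792, with no EB KO value. The KO value stood apart from 2 WT values, and the difference of -0.240 was the only one of -0.20 or below in ESC. The transcript 1700020I14Rik (chromosome 2, position 119420061, plus strand, matched to a transcript with no coding sequence) had 0.526 and 0.343, with 0.50 in EB WT. Gigyf2 (0.981 and 0.871), Fopnl (0.745 and 0.618), Nf2 (0.90 and 0.78), Pvr (0.949 and 0.836) and Rrbp1 (0.694 and 0.589) fell by 0.105 to 0.128. Nf2 encodes merlin, a tumour suppressor of the Hippo pathway, and Gigyf2 a translational repressor.

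In EB the largest fall was at Scaf11, an SR-related splicing factor gene (chromosome 15, position 96249267, minus strand, coding sequence). It had 0.170 (WT) and 0.365 (KO) in ESC and 0.557 (WT) and 0.306 (KO) in EB. EB WT was by far the highest of its 4 values, and the difference was -0.252 in EB and 0.195 in ESC. Tcf3, which encodes E proteins of the helix-loop-helix class, had a site on chromosome 10 (position 79875986, minus strand, coding sequence) with 0.804, 0.827, 0.938 and 0.687. At Tcf3 the ESC values were alike and the EB values lay on either side of them, 0.251 apart.

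Snx3, a sorting nexin of endosomal recycling (chromosome 10, position 42222156, plus strand, coding sequence), had 0.784, 0.764, 0.873 and 0.659, with the same pattern as Tcf3. Drap1, a subunit of the transcription repressor NC2 (chromosome 19, position 5423594, minus strand), had 0.852, 0.921, 0.945 and 0.75, with EB KO alone below the rest. Sf3a3, a subunit of the U2 snRNP (chromosome 4, position 124405366, plus strand, coding sequence), had 0.190, 0.233, 0.261 and 0.108, so a poorly cut site was cut still less in EB KO. Utp20, Safb2 and Ndc1, the last a nuclear pore membrane protein, fell in EB by 0.134, 0.141 and 0.144.

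Opposite calls in the stages were made at 5 of the 128 sites. Higher in ESC and lower in EB were 4 sites (2.24% of all sites with 4 values did this), namely Scaf11, Dlgap5, Lrch4 and Fnta. Lower in ESC and higher in EB was 1 site (0.264% of all), at Pmf1, a kinetochore protein gene (chromosome 3, position 88214111, minus strand), with 0.644 (WT) and 0.462 (KO) in ESC and 0.551 (WT) and 0.762 (KO) in EB. The Pmf1 KO values were the lowest and the highest of the 4. The Dlgap5 site (a spindle protein; chromosome 14, position 48029987, minus strand, coding sequence) had 0.553, 0.692, 0.867 and 0.711. The Lrch4 site, whose bases fit a second gene as well, had 0.372, 0.492, 0.516 and 0.348. At Dlgap5 and Lrch4 EB WT was the highest value, as it was at Scaf11.

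The base before GACA, base 4, was A at 132 low-class sites (53.0%) and G at 117 (47.0%). In the other classes G was the more frequent, with 65.3% against 34.7% A. AGACA and GGACA both match the DRACH motif, with GGACA known as the preferred form. In ESC, the 95 low-class sites with A had a median difference of 0.0404 (95% interval over sites 0.0230 to 0.0541), with 22 higher by 0.10 or more (23.2%) and 5 lower. The 81 with G had a median of 0.0180 (0.00538 to 0.0430), with 16 higher (19.8%) and 5 lower. The intervals overlap, but they run over sites that share libraries, and the difference between A and G was not tested. In EB the median was 0.00175 over 74 sites with A, with 6 higher and 6 lower. With G it was -0.00669 over 66 sites, with 5 higher and 9 lower. Over all sites of either base, 2.58% were lower in ESC and 5.96% in EB.

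In the other classes base 4 went the other way. Their ESC median was 0.0858 with A (47.7% higher) and 0.239 with G (70.0% higher), and their EB medians were 0.0356 (32.3%) and 0.164 (57.6%). The larger difference at GGACA was therefore seen in the other classes and not in the low class, where the ESC median with A was 0.0224 above that with G. In levels, the ESC KO median of low-class sites was 0.839 with A and 0.755 with G, and 20.9% of the G sites lay below 0.20 against 7.92% of the A sites. Examples of responders occur with both bases: Gse1, Chac1 and Tut4 carry G, and Tbx3, Kif14, Chd4 and Cit carry A.

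Base 9, after GACA, was A at 62 sites (24.9%), C at 40 (16.1%), G at 101 (40.6%) and T at 46 (18.5%), against 20.8%, 20.1%, 37.5% and 21.6% in the other classes. It went with the level of cutting more than with the genotype difference. In ESC WT the medians were 0.872 with A, 0.763 with C, 0.597 with G and 0.829 with T, and in ESC KO 0.881, 0.836, 0.570 and 0.809. In EB WT they were 0.891, 0.801, 0.704 and 0.860, and in EB KO 0.892, 0.814, 0.612 and 0.889. In every column A was highest and G lowest. With G, 28.9% of ESC KO values lay below 0.20, and with A 0%. The same order of A above G was found in the other classes, whose ESC KO medians were 0.910 with A and 0.505 with G, so it is not particular to the low class. Lowest were the 52 sites with G at both base 4 and base 9, with medians of 0.287 in ESC WT and 0.236 in ESC KO.

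The genotype differences by base 9 were small and overlapped. In ESC the medians were 0.0180 with A (10 of 47 higher by 0.10 or more), 0.0490 with C (9 of 30), 0.0313 with G (12 of 67) and 0.0320 with T (7 of 32). In the other classes 58.6%, 67.9%, 57.9% and 68.8% were higher in ESC, in the order A, C, G and T. In EB the low-class medians were -0.0123 (4 of 41), -0.0136 (2 of 24), 0 (3 of 53) and 0.00312 (2 of 22), against 46.5%, 48.0%, 41.9% and 62.3% higher in the other classes. Low-class sites lower in KO in ESC numbered 2, 3, 3 and 2 in the order A, C, G and T (4.26%, 10%, 4.48% and 6.25%). In EB they numbered 4, 3, 7 and 1 (9.76%, 12.5%, 13.2% and 4.55%). Over all sites of every base, 2.58% were lower in ESC and 5.96% in EB. The largest share was in the 22 sites with A at base 4 and C at base 9, of which 8 were higher in ESC (36.4%), Tbx3 and Cit among them; this group was picked out after the values were seen. Read by base 9, Gse1 and Chd4 carry A, Tbx3 and Cit carry C, Rlim and Timm44 carry G, and Kif14, Chac1 and Tut4 carry T.

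**Figure D4:**
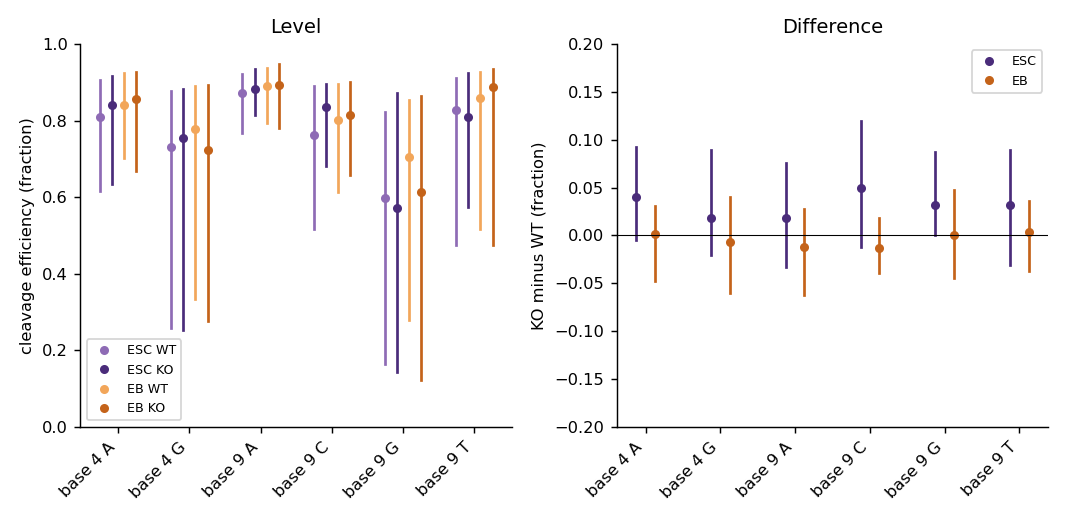
Low-class sites split by base 4 (A, G) and base 9 (A, C, G, T). Left, cleavage efficiency (fraction) in each of the 4 columns; right, KO minus WT (fraction) in ESC (purple) and EB (orange); points are medians over sites and lines join the quartiles. Levels are lowest with G at base 9 (0.570 in ESC KO) and highest with A (0.881), while the differences overlap for every base.

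Beyond bases 4 and 9, the low class held fewer T on both sides. T stood at base 3 in 32 sites (12.9%), against 27.3% in the other classes, and at base 10 in 42 (16.9%), against 30.9%. G was more frequent at base 2 (39.0% against 30.4%) and at base 10 (36.1% against 26.4%).

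The class also differed in where its sites lie. Matching named the gene of 237 sites, 230 genes in all, by comparing the 11 bases with annotated transcripts of another build. Of these, 159 lay in coding sequence (67.1%, against 53.0% in the other classes), 37 in a 5′ UTR (15.6% against 6.51%), 20 in a 3′ UTR (8.44% against 36.5%) and 21 in transcripts with no coding sequence (8.86% against 4.04%). In the last exon were 36 sites (15.2%), against 59.1%. m6A is known to be most frequent in last exons near stop codons and scarce close to splice junctions.

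Within 100 nt of an exon junction were 162 of the 237 (68.4%), against 40.3% in the intermediate, 11.3% in the high and 5.26% in the highest class. The median distance to a junction was 63 nt, against 243 nt in the other 3 classes. Among coding sites alone, 131 of 159 lay that near (82.4%), against 30.9%. The order of the classes by this share was the reverse of their order by genotype difference.

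The gap in differences between the classes was present both near to and far from junctions. Within 100 nt of a junction, the low-class ESC median was 0.0261 with 23 of 111 sites higher by 0.10 or more (20.7%), against 0.0635 and 40.0% in the other classes. Farther away it was 0.0537 with 15 of 53 higher (28.3%), against 0.235 and 69.9%. In EB the near sites had a median of -0.0106 with 8 of 95 higher, and the farther sites 0.000339 with 2 of 34 higher, against 0.0118 (22.0% higher) and 0.155 (57.8%). By region, the gap was absent in 5′ UTRs in ESC, where 8 of 25 low-class sites were higher (32.0%), against 31.2% in the other classes. The mix of the other classes differed by region. Of their named 5′ UTR sites 67 of 87 were intermediate, while 363 of 708 coding sites and 354 of 488 3′ UTR sites were high. The low class was not set against the intermediate class alone by region. In coding sequence 24 of 112 low-class sites were higher in ESC (21.4%), against 62.5%. In 3′ UTRs these were 4 of 15 (26.7%), against 71.6%, and in transcripts with no coding sequence 2 of 13 (15.4%), against 43.2%. In EB no 5′ UTR site of 17 was higher, against 17% (9 of 53) in the other classes, which was their lowest share as well. The EB counts were 5 of 93 in coding sequence, 2 of 10 in 3′ UTRs and 3 of 11 in transcripts with no coding sequence, against 46.7%, 59.5% and 39.4%.

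In 41 genes a low-class site stood beside a site of another class. Sites were paired by gene, and whether both lie in the same transcript was not checked. ESC differences for both existed in 21 genes, and the site of the other class had the larger difference in 20, the exception being Akap2. The median gap was 0.1997. In EB this held in 14 of 17 genes, with Chd4, Knop1 and Prrc2c the exceptions and a median gap of 0.145. The classes thus differed within genes as well.

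Ccnd1, the gene of cyclin D1, gave the closest of the pairs described here. Its low-class site (chromosome 7, position 152118420, minus strand, 3′ UTR) had 0.217 (WT) and 0.139 (KO) in ESC and 0.235 (WT) and 0.136 (KO) in EB. The high-class site 99 nt away (position 152118519, coding sequence) had 0.311, 0.971, 0.330 and 0.948. The same 6 bases, GGACAT, thus went with little cutting in all groups at one site and with a rise of 0.660 in ESC and 0.618 in EB at the other.

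Further pairs, picked after their values were seen, differed from Ccnd1 in that the low-class site was well cut throughout. Slc2a3, a glucose transporter gene, had 2 low-class sites, with 0.871, 0.895, 0.882 and 0.867 at one and 0.839, 0.862, 0.887 and 0.873 at the other. Its high-class site had 0.295, 0.916, 0.410 and 0.938. Hspa5, the gene of the chaperone BiP of the endoplasmic reticulum, had 0.903, 0.865, 0.882 and 0.893 at a low-class site in the 5′ UTR and 0.220, 0.901, 0.303 and 0.893 at a high-class site in coding sequence. In both genes every site was at 0.862 or above in KO, and the high-class sites alone were poorly cut in WT. Usp8, a deubiquitinase gene, had 2 low-class sites far apart in level, one with 0.821, 0.95, 0.806 and 0.884 and one with 0.0204, 0.0714, 0.0147 and 0.0484.

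**Figure D5:**
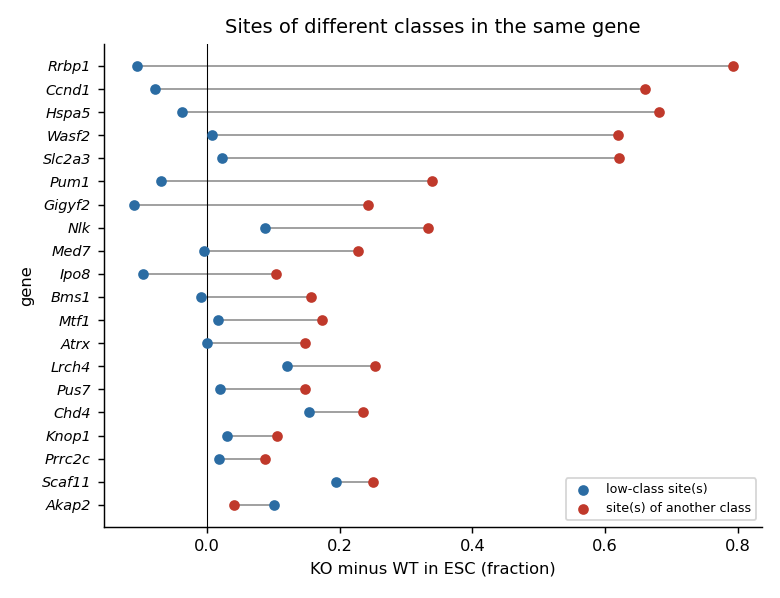
KO minus WT in ESC (fraction, horizontal axis) for 20 genes with both a low-class site (blue) and a site of another class (red); where a gene has several sites of a kind, the point is their mean. Red lies to the right of blue in every gene drawn except Akap2; 1 further gene counted in the text is not drawn, since the rule for naming left its chromosome out.

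Read by gene group, the low class held few sites of each list. Of the chromatin and transcription list there were 12 sites in 11 genes. In ESC 1 of 8 was higher by 0.10 or more (Chd4) and in EB 2 of 9 (Chd4, and Phf21a with 0.896 in WT and 1 in KO), with none lower in either. Over all classes the same list had 20 of 39 sites higher in ESC and 18 of 38 in EB. The list medians in the low class were 0.00952 in ESC and -0.0251 in EB, against 0.0309 and -0.000233 over the class. Of 8 cell cycle sites, 3 of 4 were higher in ESC (Kif14, Smc4 of the condensin complex, and Cdc5l, which acts in splicing as well) and 0 of 5 in EB, against 15 of 22 and 8 of 22 over all classes.

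Of 5 splicing and hnRNP sites, 2 were higher in ESC: Scaf11 and Srsf10, an SR splicing factor with 0.340 in WT and 0.548 in KO. In EB 0 of 3 were higher and 2 were lower, Scaf11 and Sf3a3. Over all classes the list had 15 of 26 higher in ESC, and 7 of 21 higher and 3 lower in EB. Of 6 ubiquitin and proteasome sites, 1 of 3 was higher in ESC (Usp8) and 0 of 3 in EB, against 12 of 25 and 6 of 20 over all classes. Of 2 mitochondrial sites Timm44 was higher in ESC, against 3 of 7 over all classes. Neither of 2 translation sites passed 0.10 in either stage, where over all classes 16 of 24 were higher in ESC and 10 of 21 in EB. Both nuclear import sites lay in Ipo8, an importin gene, of which 1 was lower in ESC (0.250 in WT, 0.147 in KO). Over all classes that list had 8 of 13 sites higher and 2 lower in ESC. No germ layer gene had a low-class site. The counts are too small to set one list against another.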

How the data were processed

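Cleavage efficiencies of ACA sites in polyA RNA from 10 mouse libraries in 4 groups were used as deposited. Per the file headers, the authors deposited 1 cleavage efficiency for each site in each group, a fraction from 0 to 1 by its values, with position, strand, sequence, transcript and class. Per the submitters' processing notes, STAR 2.5.3a, bedtools 2.26.0 and the build mm9 were used; for read counting, minimum reads and the pooling of libraries the sources used here give nothing. The table held 0 value columns of no group.

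KO minus WT was taken per site without filter or pseudocount, and a size of 0.10 was counted (Python 3.11.15, pandas 2.3.3, NumPy 2.4.6, SciPy 1.17.1, matplotlib 3.10.9); the script was tested on simulated data. Intervals of medians are 95% order-statistic intervals over sites, which are not cultures. Positions are 1-based in mm9 and mark the A of ACA. Genes were named by matching the 11 bases to GENCODE M21 transcripts (build GRCm38) on the same chromosome and strand, where the shift between builds was the same as for a nearby site (up to 3 away) in a different gene. This named 1574 of 1626 sites and 0 on the opposite strand; 222 of 237 named low-class sites lay no more than 100 nt from the transcript position in the table, and 7 fit more than 1 gene. Regions are those of the matched transcript.

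Members, lists and tests were chosen with earlier results of these data known. Named sites were those higher by 0.10 in both stages, the 8 largest rises per stage, the 10 largest falls, the 5 lowest and highest means, the 3 largest each way per base 4 and base 9, and up to 3 per gene list; others named beside a count or a pair were chosen after their values were seen. A site that this rule takes is not reported here and still counts in the totals. Alternatives tried were a size of 0.20, a logit scale, complete sites only, means, column medians subtracted, limits on level, and 1 site per transcript.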

Additional observations from a re-analysis of the deposited data

Results flagged for a closer look

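At 5 low-class sites the KO minus WT difference was at least 0.10 upward in one stage and at least 0.10 downward in the other. Each difference rests on 1 value per group, so the contrast between stages was not tested. The EB difference minus the ESC difference was -0.447 at Scaf11, -0.295 at Dlgap5, -0.288 at Lrch4 and -0.263 at Fnta, the gene of a farnesyltransferase subunit. At Fnta the values were 0.303 (WT) and 0.426 (KO) in ESC and 0.725 (WT) and 0.585 (KO) in EB. At Pmf1 it was 0.393, in the opposite direction.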

How the results depend on the processing

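No paired analysis was possible because the table holds 1 value per group; for the same reason no replicate could be left out. With a size of 0.20, sites higher and lower in KO fell to 13 and 1 in ESC and 3 and 3 in EB, and sites higher in both stages to 0. With complete sites only, 25 were higher and 4 lower in ESC and 6 higher in EB. On the logit scale 5 sites were higher in both stages, and in EB 14 were higher and 13 lower. With column medians subtracted, the median was -0.342 in ESC, a reversal, with 1 site higher and 170 lower, and -0.267 in EB, with 1 higher and 136 lower, and 0 sites were higher in both stages; this shift follows from the subtraction itself. In EB the median of A minus that of G at base 4 turned to -0.00490 with KO values of at least 0.20. The EB median of C minus that of A at base 9 turned to 0.00595 within base 4 A and 0.000850 within base 4 G, from -0.00128. Depth is unknown, so differences near 0.10 cannot be told from counting error.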
